A study of Homo sapiens with 12 samples.

Results

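The genes described here are 41 that act in fatty acid oxidation or build the peroxisome, chosen from a list of symbols out of 19775 genes with a probe set of their own on the array. They comprise 1 transcription factor (PPARA), 16 enzymes and carriers of the mitochondrial pathway, 3 enzymes found in both compartments, 7 peroxisomal enzymes, 2 ABC transporters and 12 peroxins, the proteins (gene names PEX) that assemble the organelle. A gene was read from the probe set carrying its symbol alone that had the highest mean over the 12 arrays, and 39 of the 41 had such a probe set. Messenger RNA was measured in HK-2, a human proximal tubule epithelial line immortalised with papillomavirus genes, so that all cultures share 1 cell line. Cultures treated with Kbr were sampled at 24 h (Kbr 24 h) or 48 h (Kbr 48 h), as were vehicle cultures (control 24 h and control 48 h), and each of the 4 groups had 3 arrays that the labels call biological replicates. The labels describe the treatment as a high dose and name the agent only as Kbr, and no concentration is stated in the sources used here. All cultures were grown in a medium with glucose, growth factor, hydrocortisone, insulin, transferrin and selenite, and were treated near confluence. The stated aim of the work was to find signatures of toxicity, and the comparisons below ask how this set of genes differed between Kbr and vehicle at each time.

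Beta-oxidation in mitochondria shortens fatty acids to acetyl-CoA: carnitine carriers bring the acyl chain in, dehydrogenases, hydratases and thiolases remove carbon units, and electron transfer flavoprotein passes the electrons on. Peroxisomes shorten very long and branched chains, hand the products to mitochondria through carnitine acyltransferases, and depend on peroxins to import their enzymes. In the proximal tubule fatty acids are a main fuel, and the nuclear receptor PPAR-alpha, encoded by PPARA, is a known activator of genes of both pathways.

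Values are log2 GCRMA units, an array summary corrected for background binding, and genes are not ranked against each other by level. Marker levels were summed over each list before taking the log, so the brightest probe sets weigh most in those sums. A gene was tested if 3 or more arrays lay above 4 log2 units, which was so for 38 of the 41, and it was called at an adjusted p under 0.05 in limma over all 10574 tested genes. The other 3 were SCP2 and PEX13, for which no probe set with that symbol alone was analysed here, and AMACR, a racemase of branched-chain fatty acids. The array values of AMACR lay between 2.86 and 3.03 in all 4 groups on the probe set read. Another 3 AMACR probe sets also carry a second symbol and were not read, so whether HK-2 expresses AMACR was not settled here. HK-2 showed only part of its labelled tissue: of 22 proximal tubule markers 6 exceeded the filter, among them the cadherin CDH6 and the transcription factor PAX8, while the endocytic receptor LRP2 and the water channel AQP1 did not. Array Kbr 48 h replicate 3 stood apart, deviating from its group's means by 0.290 log2 units (root mean square) against 0.164 to 0.228 in the other 11 arrays, and values without it are given where they change a call.

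At 48 h most of these genes were lower with Kbr. Of the 38 tested genes 25 fell and 1 rose, with a median log2 fold change (Kbr over control) of -0.71, whereas over all tested genes 32.8% fell, 26.9% rose and the median was -0.06. At 24 h 12 fell and 1 rose, with a median of -0.31, against 20.0% lower, 12.4% higher and a median of -0.06 over all tested genes. The fall was at least 2-fold in 11 genes at 48 h (15.5% of all tested genes) and in 1 of 38 at 24 h, a share below that of all tested genes (6.02%). One gene of these counts, PEX6, exceeded the filter value in control arrays alone, so it had to read lower with Kbr, and without it 24 of 37 fell at 48 h (median -0.70), 10 of them at least 2-fold, and 12 at 24 h (median -0.30). In 25 genes at 48 h and 16 at 24 h all 3 Kbr arrays were below all 3 control arrays of that time, which held for 34.2% and 29.2% of all tested genes. Fewer cells of a kind and less messenger RNA per cell cannot be told apart in such cultures. In the same arrays 18S and 28S ribosomal RNA probe sets were higher with Kbr by 0.49 and 0.38 at 24 h and by 0.51 and 0.46 at 48 h (log2), and their part in these results was not tested.

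The count at 24 h was less steady than that at 48 h. Same-numbered replicates deviated from their group means together, and with the replicate number as a block 19 genes fell and 2 rose at 24 h. With that block 29.4% of all 10574 tested genes were called lower at 24 h, and 1963 of them higher. Without Kbr 24 h replicate 1 only 4 genes were called at 24 h, without Kbr 24 h replicate 2 it was 8, without control 24 h replicate 1 it was 6, and without control 24 h replicate 2 it was 7. Of the 13 genes called at 24 h, ACAA2 and ECI1 kept the call whichever of the 12 arrays was left out. The calls of ACADM, ACADVL, ACOX3, DECR1, ETFB, HADHA, PEX14, PEX2, PEX3, PPARA and SLC25A20 were each lost without some array. At 48 h the block gave 26 lower and 1 higher, against 4028 lower and 3310 higher of all 10574 tested genes. Of the 26 calls made at 48 h without the block, 22 held whichever array was left out. Without Kbr 48 h replicate 3 the count at 48 h was 24 lower and 2 higher. Calls over all tested genes with an array left out are not given here. Whether such losses are particular to this set was not tested.

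Falls were counted in each class. At 48 h 13 of 16 mitochondrial genes fell and 0 rose (median -0.84). Of 6 tested peroxisomal enzymes 5 fell and 0 rose (median -0.64). In some alternative setting the calls of CROT, ACOX3 and EHHADH among these enzymes were lost. Among the mitochondrial genes those of ACAA2 and SLC25A20 were. A second CROT probe set was called higher. Of 2 tested genes of both compartments 1 fell, and neither of the 2 ABC transporters was called. Among 11 tested peroxins 5 were called lower and 1 higher (median -0.70), and without PEX6 it was 4 lower and 1 higher of 10 (40% lower against 32.8% of all tested genes, median -0.39). At 24 h the falls numbered 8 of 16 mitochondrial genes (50%, against 20.0% of all tested genes, median -0.45). The share was 1 of 6 in peroxisomal enzymes (16.7%, median -0.21) and 2 of 11 in peroxins (18.2%, median -0.25, with 1 higher), both near that of all tested genes in this fit. With the replicate number as a block the falls at 24 h were 11 of 16 mitochondrial genes, 3 of 6 peroxisomal enzymes and 4 of 11 peroxins (with 2 higher). In that fit 29.4% of all tested genes were called lower. The differences between classes were not tested.

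**Figure D1:**
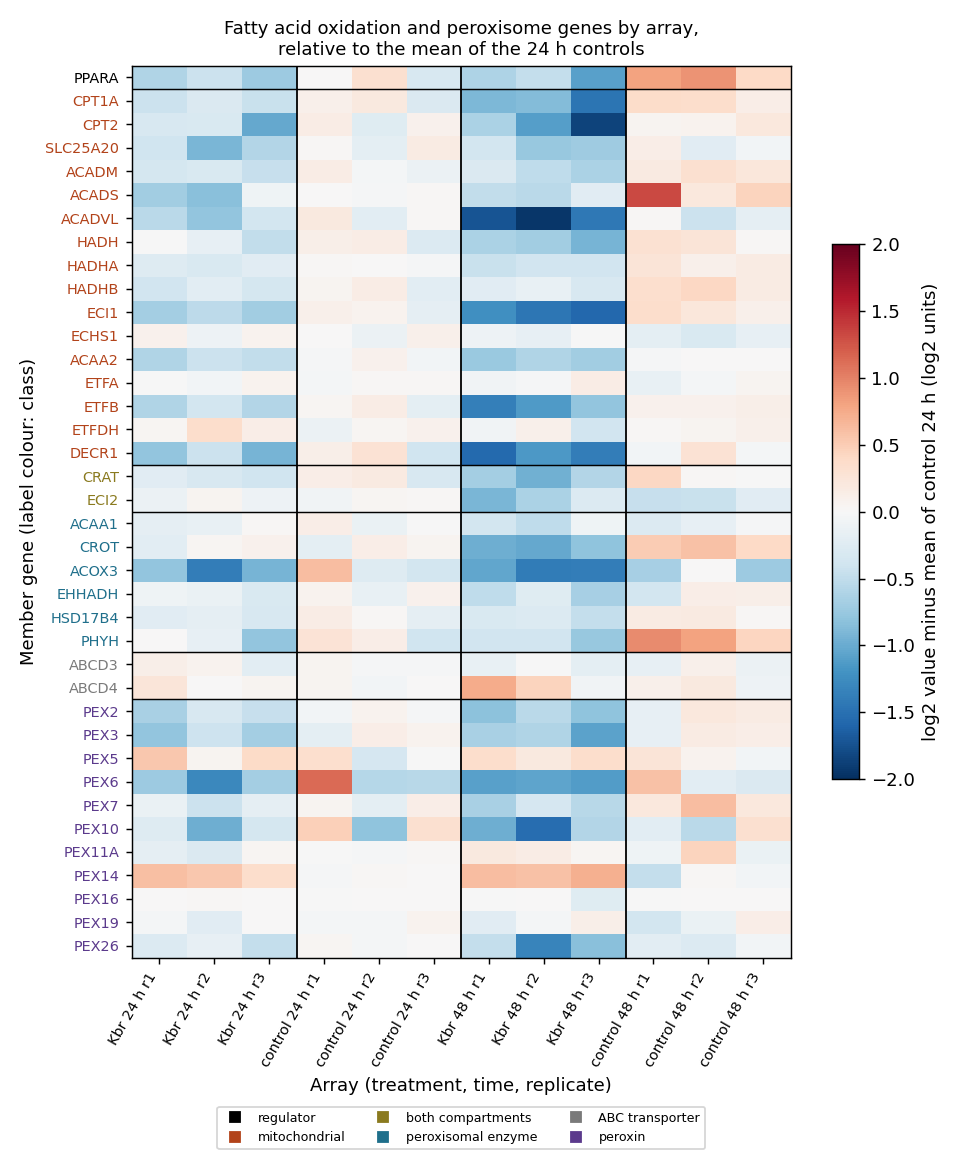
Log2 value of the 38 tested genes (rows, grouped by class) in each of the 12 arrays (columns), minus the gene's mean in the control 24 h arrays, with blue for lower and red for higher. Most rows of mitochondrial genes are darkest blue in the 3 Kbr 48 h columns, while ETFA, ECHS1, ABCD3 and PEX16 stay pale throughout and PEX14 is red in all 6 Kbr columns.

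**Figure D2:**
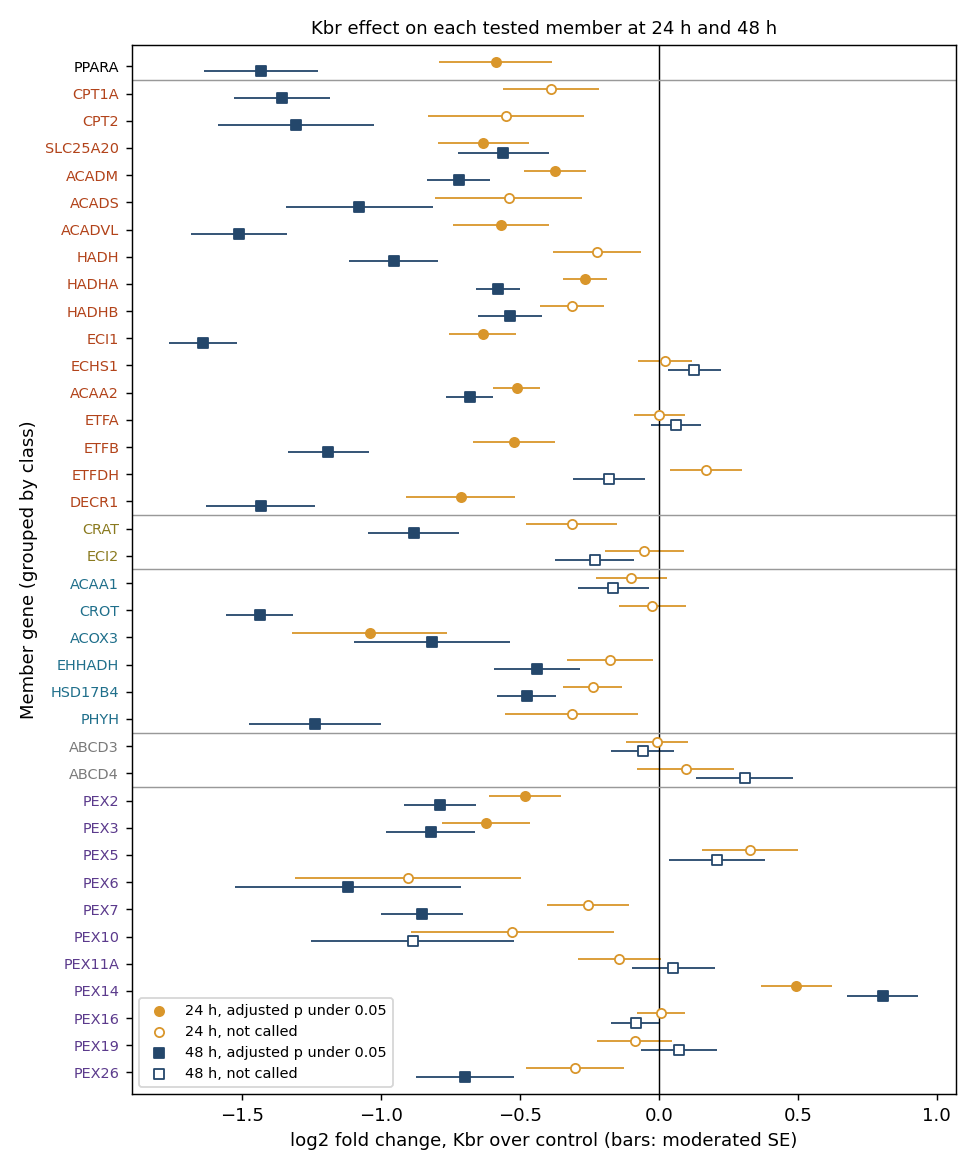
Log2 fold change of Kbr over control for each tested gene at 24 h (circles) and 48 h (squares), with the moderated standard error as bars and filled symbols for calls at an adjusted p under 0.05. At 48 h 25 filled squares lie left of 0 and 1, PEX14, lies right of it.

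Promoter sequence was available for 34 of the 41 genes in the RefSeq table (build GRCh38.p14), as 250 bases before and 50 after the start of transcription. The letters CCGGAAG, the core bound by ETS family factors, were searched on both strands and occurred in 10 of the 34 windows (29.4%), against 10.3% of 35116 promoters in the table. It was held by the windows of 6 of 21 genes lower at 48 h (28.6%) and of 4 of 10 tested genes not lower (40%). GGGCGG, the GC box, occurred in 26 of 34 windows (76.5%) against 45.0% of all promoters, and CCAAT in 26.5% against 34.6%. AGGTCA, the core that nuclear receptors such as PPAR-alpha bind, was found in 1 of 34 windows against 13.8% of all promoters, and TCAAGGTCA, an oestrogen-related receptor site that contains it, in 0 against 0.353%. The other motifs searched were CACGTG (1 window, against 7.26%), TGACNNNGC (5 windows, against 13.3%) and TGCGCA (3 windows, against 8.24%). A match is only these letters in this window. The promoters compared were all those in the table, not only those of tested genes. Whether other tested genes hold these letters as often was not tested. The 250 bases upstream are printed for the regulator PPARA, for 3 mitochondrial genes lower at 48 h and for the peroxin PEX11A, which was not called, because they show the ETS core both in genes that fell and in a gene that was not called. Capitals mark CCGGAAG or its reverse complement, and each sequence runs 5′ to 3′ on the gene's strand.
PPARA (chr22:46150276-46150525, plus strand): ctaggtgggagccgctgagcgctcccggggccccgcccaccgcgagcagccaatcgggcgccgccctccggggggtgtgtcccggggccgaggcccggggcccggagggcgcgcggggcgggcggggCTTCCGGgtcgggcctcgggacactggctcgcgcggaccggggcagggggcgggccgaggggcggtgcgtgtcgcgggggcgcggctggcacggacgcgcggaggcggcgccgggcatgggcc
CPT2 (chr1:53196574-53196823, plus strand): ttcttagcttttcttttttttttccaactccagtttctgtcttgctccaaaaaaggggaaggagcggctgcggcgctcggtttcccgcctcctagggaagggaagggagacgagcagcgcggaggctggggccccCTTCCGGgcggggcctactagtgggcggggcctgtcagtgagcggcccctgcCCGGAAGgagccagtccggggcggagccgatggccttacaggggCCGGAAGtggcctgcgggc
SLC25A20 (chr3:48898883-48899132, minus strand): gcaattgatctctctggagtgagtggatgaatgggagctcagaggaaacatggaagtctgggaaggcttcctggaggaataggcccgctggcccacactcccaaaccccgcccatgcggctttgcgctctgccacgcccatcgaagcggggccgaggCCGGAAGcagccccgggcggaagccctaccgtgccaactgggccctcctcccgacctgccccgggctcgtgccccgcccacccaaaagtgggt
ECI1 (chr16:2251588-2251837, minus strand): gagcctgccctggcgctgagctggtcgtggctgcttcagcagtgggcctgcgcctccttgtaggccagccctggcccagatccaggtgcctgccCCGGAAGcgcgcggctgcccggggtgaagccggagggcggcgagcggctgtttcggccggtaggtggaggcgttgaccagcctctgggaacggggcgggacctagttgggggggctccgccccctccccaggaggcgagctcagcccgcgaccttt
PEX11A (chr15:89690755-89691004, minus strand): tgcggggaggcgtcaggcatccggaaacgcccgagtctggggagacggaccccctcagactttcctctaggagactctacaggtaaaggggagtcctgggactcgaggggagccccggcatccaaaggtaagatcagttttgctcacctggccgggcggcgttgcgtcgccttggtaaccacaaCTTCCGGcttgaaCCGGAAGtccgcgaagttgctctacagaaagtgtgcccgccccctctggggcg
CPT2 holds the core 3 times in this stretch, PEX11A 2 times and the others once.

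PPARA (probe set 223437_at) was lower with Kbr at 48 h, while its call at 24 h lay at the threshold. Its log2 values were 7.23, 7.40 and 7.10 in Kbr 24 h cultures, against 7.83, 8.15 and 7.51 in control 24 h cultures. The arrays did not overlap, and the fold change was -0.59 (SE 0.20, adjusted p = 0.0473). That call was lost on leaving out any 1 of 8 of the 12 arrays (adjusted p between 0.0517 and 0.159), without the filter (0.110), with quantile normalization (0.0787) and with the mean of all its probe sets (-0.32, adjusted p = 0.0533). Values at 48 h were 7.22, 7.35 and 6.74 in Kbr cultures, against 8.64, 8.73 and 8.24 in control cultures. Every Kbr array was again below every control array, and the fold change was -1.43 (SE 0.20, adjusted p = 0.000134), which left the Kbr level at 37.1% of control. The 48 h mean minus the 24 h mean was -0.14 in Kbr and 0.70 in control cultures. The difference between the effects was -0.84 (SE 0.29), which was not called (adjusted p = 0.105) except with the replicate block (adjusted p = 0.00439). The higher control level at 48 h was likewise called only with the block (adjusted p = 0.0018, against 0.0765 without it). The other 4 probe sets of PPARA over the filter were called lower at 48 h, with fold changes between -0.85 and -1.88. At 24 h 1 of them was called (-0.78, adjusted p = 0.0252 in the fit of every probe set), the others read -0.61, -0.45 and -0.05, and in that fit 223437_at itself was not called (adjusted p = 0.0554).

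Carnitine-dependent steps bring a long acyl chain into the mitochondrion, and all their genes were lower at 48 h. CPT1A, the outer membrane carnitine palmitoyltransferase that limits the rate of entry, had 6.56, 6.58 and 5.99 in Kbr 48 h cultures, against 7.81, 7.80 and 7.58 in control 48 h cultures. Its fold change at 48 h was -1.35 (SE 0.17, adjusted p = 6.28e-05), or 39.1% of control. At 24 h it had 7.02, 7.16 and 7.01 in Kbr cultures, against 7.55, 7.64 and 7.16 in control cultures, a fold change of -0.39 called only with the replicate block (adjusted p = 0.0147, against 0.109 without it). The lowest control array and the highest Kbr array of CPT1A thus met at 24 h and lay far apart at 48 h. SLC25A20, the carnitine-acylcarnitine carrier of the inner membrane, had 4.89, 4.38 and 4.71 in Kbr 24 h cultures, against 5.31, 5.10 and 5.46 in control 24 h cultures. SLC25A20 fell by a similar amount at both times, -0.63 (SE 0.16, adjusted p = 0.0139) at 24 h and -0.56 (SE 0.16, adjusted p = 0.0126) at 48 h. Its values lay not far above the filter value of 4. Without Kbr 24 h replicate 2 the first call was lost (adjusted p = 0.0561). The second was lost without control 48 h replicate 1 (adjusted p = 0.0519) and with quantile normalization (-0.39, adjusted p = 0.0544). CPT2, the inner membrane transferase that returns the chain to CoA, fell by 1.30 on the log2 scale at 48 h (SE 0.28, adjusted p = 0.00204). Its Kbr 48 h arrays spread over 6.61, 6.15 and 5.39, against 7.30, 7.31 and 7.44 in control 48 h arrays. A second CPT2 probe set gave -1.12 at 48 h.

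The 3 acyl-CoA dehydrogenases of the set, which take the first hydrogens from the chain, fell at 48 h. ACADVL, for very long chains, had 9.62, 9.36 and 9.78 in Kbr 24 h cultures, against 10.35, 9.93 and 10.17 in control 24 h cultures (fold change -0.57, SE 0.17, adjusted p = 0.0282). Values at 48 h were 8.42, 8.21 and 8.72 in Kbr cultures, against 10.17, 9.73 and 9.97 in control cultures. This was one of the largest falls of the set, -1.51 (SE 0.17, adjusted p = 3.15e-05), or 35.1% of control, with a gap of over 1 log2 unit between the groups. ACADM, for medium chains, fell by 0.37 at 24 h (SE 0.11, adjusted p = 0.0267) and by 0.72 at 48 h (SE 0.11, adjusted p = 0.000254). ACADS, for short chains, had 4.99, 4.96 and 5.26 in Kbr 48 h cultures, against 6.81, 5.70 and 5.93 in control 48 h cultures. It fell by 1.08 at 48 h (SE 0.26, adjusted p = 0.00469), with control 48 h replicate 1 well above the other controls.

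Hydratase, dehydrogenase and thiolase steps fell as well, but not in every gene. HADHA and HADHB, the subunits of the trifunctional protein that handles long chains, fell by 0.58 (SE 0.08, adjusted p = 9.77e-05) and by 0.54 (SE 0.12, adjusted p = 0.00203) at 48 h. HADHA was also called at 24 h, at -0.26 (SE 0.08, adjusted p = 0.0258), and HADHB there only with the replicate block (-0.31, adjusted p = 0.0071). HADH, the short-chain hydroxyacyl-CoA dehydrogenase, fell by 0.95 at 48 h (SE 0.16, adjusted p = 0.000383), and at 24 h its -0.22 was called only with the block (adjusted p = 0.0301). The same-numbered pairs of HADH differed by -0.95, -0.96 and -0.95 at 48 h. ACAA2, the mitochondrial thiolase, had 10.01, 10.17 and 10.12 in Kbr 24 h cultures, against 10.59, 10.69 and 10.55 in control 24 h cultures. It was among the earlier falls, -0.51 at 24 h (SE 0.08, adjusted p = 0.00149) and -0.68 at 48 h (SE 0.08, adjusted p = 5.37e-05), although its probe set 202002_at gave -0.10 at 24 h and -0.52 at 48 h and was not called (adjusted p = 0.773 and 0.0771). A further ACAA2 probe set, 241114_s_at, read -0.69 at 24 h and -1.78 at 48 h. In the fit of every probe set it was called at 48 h alone (adjusted p = 0.127 and 0.000655). ECHS1, the short-chain enoyl-CoA hydratase, had 12.52, 12.46 and 12.61 in Kbr 48 h cultures, against 12.43, 12.32 and 12.46 in control 48 h cultures. Its fold changes were 0.02 at 24 h and 0.13 at 48 h, neither called (adjusted p = 0.882 and 0.272).

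Of the auxiliary enzymes that let unsaturated fatty acids pass through the cycle, ECI1 and DECR1 had among the largest falls of the set, while ECI2, described with the enzymes of both compartments, was not called at either time (adjusted p = 0.818 and 0.190). ECI1, an enoyl-CoA delta isomerase, had 9.22, 9.38 and 9.21 in Kbr 24 h cultures, against 10.01, 9.98 and 9.72 in control 24 h cultures. Later, at 48 h, it had 8.67, 8.46 and 8.34 in Kbr cultures, against 10.26, 10.13 and 10.00 in control cultures. The groups were apart at both times, with fold changes of -0.63 (SE 0.12, adjusted p = 0.00309) and -1.64 (SE 0.12, adjusted p = 2.40e-06), and the Kbr level at 48 h was 32.1% of control. DECR1, the mitochondrial dienoyl-CoA reductase, had 10.52, 10.87 and 10.36 in Kbr 24 h cultures, against 11.41, 11.58 and 10.90 in control 24 h cultures (fold change -0.71, SE 0.20, adjusted p = 0.0182). Its 48 h values were 9.74, 10.14 and 9.92 in Kbr cultures, against 11.25, 11.59 and 11.25 in control cultures (fold change -1.43, SE 0.20, adjusted p = 0.000105). All 3 same-numbered pairs of DECR1 were lower with Kbr at each time.

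The electron acceptors of the pathway were unequal. ETFB, the beta subunit of electron transfer flavoprotein, had 9.26, 9.50 and 9.85 in Kbr 48 h cultures, against 10.71, 10.72 and 10.75 in control 48 h cultures, and fell by 1.19 (SE 0.15, adjusted p = 4.92e-05). At 24 h it had fallen by 0.52 (SE 0.15, adjusted p = 0.0198). That call was lost without replicate 1 or 3 of Kbr 24 h (adjusted p = 0.0673 and 0.0652). Leaving out replicate 1 or 2 of control 24 h also lost it (adjusted p = 0.0648 and 0.0702). ETFA, the alpha subunit of the same protein, had 11.43, 11.48 and 11.64 in Kbr 48 h cultures, against 11.35, 11.46 and 11.55 in control 48 h cultures. Those arrays overlapped, and the fold change of ETFA was 0.00 at 24 h and 0.06 at 48 h (95% interval -0.14 to 0.26, adjusted p = 0.579). ETFDH, the oxidoreductase that takes electrons from the flavoprotein, was not called at either time (0.17 and -0.18, adjusted p = 0.335 and 0.254). The single-gene differences between ETFB and its partners were not tested.

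**Figure D3:**
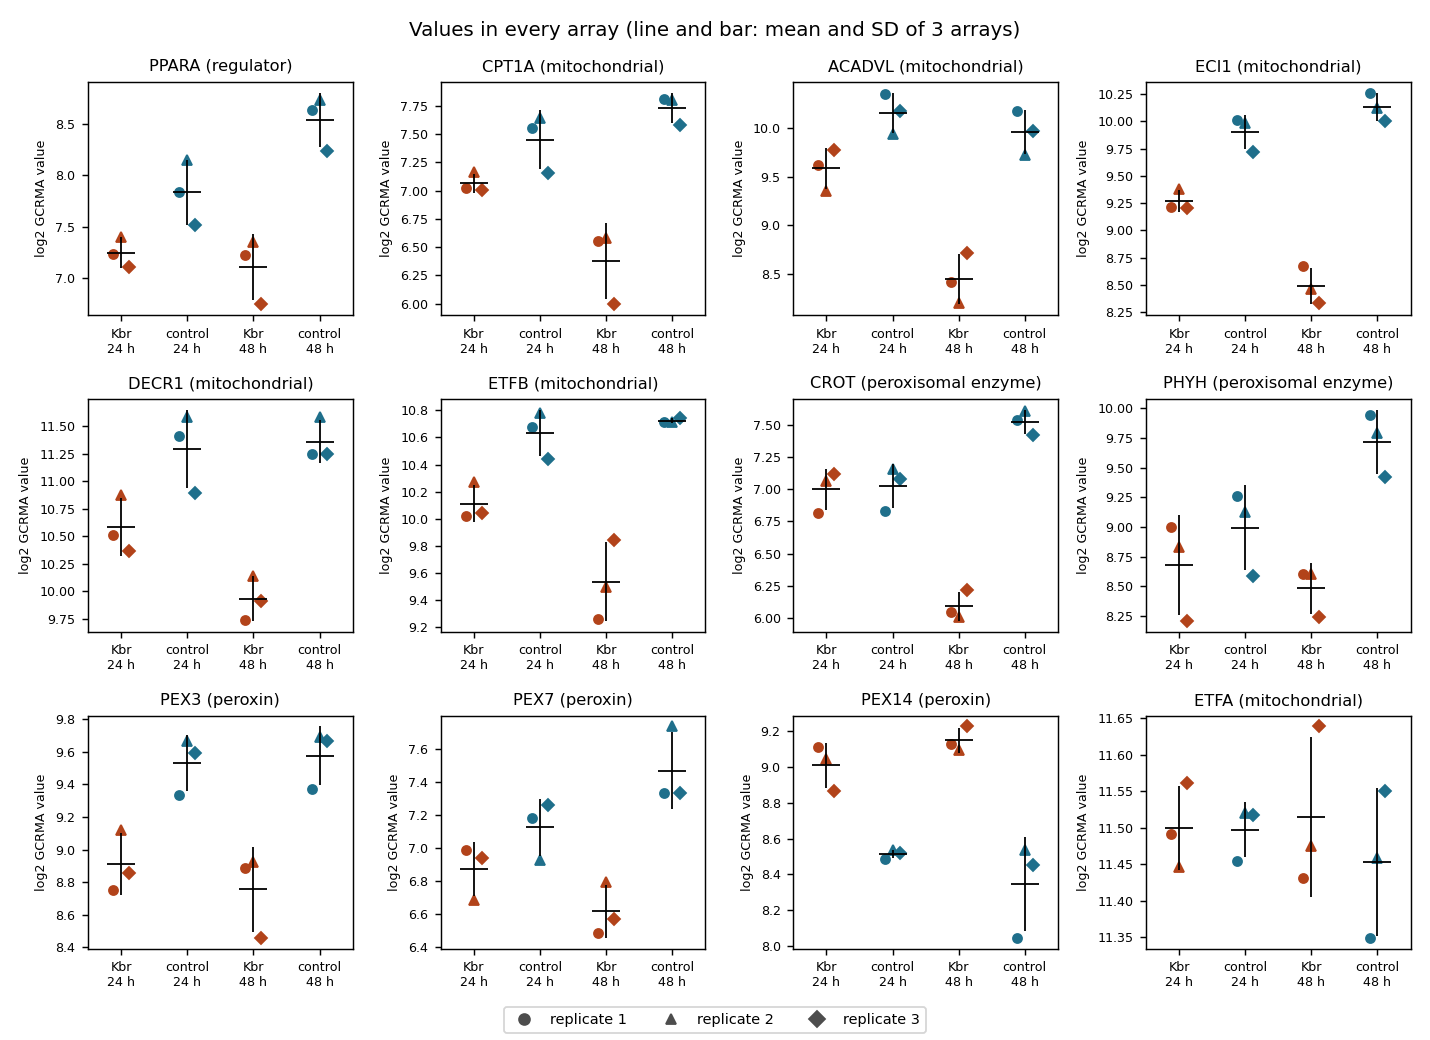
Log2 GCRMA value of 12 genes in every array (Kbr in orange, control in blue, marker shape for the replicate number), with the mean and SD of 3 arrays per group. PPARA, CPT1A, ACADVL, ECI1, DECR1 and ETFB lie lowest in the Kbr 48 h arrays or level with Kbr 24 h, PEX14 lies above control at both times, and ETFA overlaps between groups.

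Of the enzymes placed in both compartments, 1 fell at 48 h. CRAT, the carnitine acetyltransferase, had 8.20, 7.91 and 8.30 in Kbr 48 h cultures, against 9.29, 8.90 and 8.87 in control 48 h cultures, and fell by 0.88 (SE 0.16, adjusted p = 0.000808). A second CRAT probe set gave -0.24 and was not called (adjusted p = 0.0708 in the fit of every probe set). CRAT at 24 h (-0.31) and ECI2, a second enoyl-CoA isomerase (-0.05 at 24 h, -0.23 at 48 h), were not called. Without Kbr 48 h replicate 3, ECI2 was called lower at 48 h (-0.39, adjusted p = 0.0155).

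Among peroxisomal enzymes CROT, the carnitine octanoyltransferase that exports shortened chains, changed between the times. It had 6.82, 7.06 and 7.11 in Kbr 24 h cultures, against 6.83, 7.16 and 7.08 in control 24 h cultures (fold change -0.02, adjusted p = 0.907). Its 48 h values were 6.04, 6.00 and 6.22 in Kbr cultures, against 7.54, 7.61 and 7.42 in control cultures. Arrays coincided at 24 h and were over 1 log2 unit apart at 48 h, where the fold change was -1.43 (SE 0.12, adjusted p = 4.28e-06), or 37.0% of control. A second CROT probe set, 231102_at, moved the other way: 5.10, 5.21 and 4.30 in Kbr 48 h cultures, against 3.48, 3.49 and 3.60 in control 48 h cultures. It was called higher at 48 h (1.35, adjusted p = 0.000345 in the fit of every probe set), so the direction of CROT depends on the probe set, and with the mean of all its probe sets the fold change was -0.03 (adjusted p = 0.726). Which transcript each CROT probe set reads was not tested.

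PHYH, the hydroxylase that starts alpha-oxidation of phytanic acid, had 8.60, 8.61 and 8.24 in Kbr 48 h cultures, against 9.94, 9.80 and 9.42 in control 48 h cultures. It fell by 1.24 at 48 h (SE 0.24, adjusted p = 0.00105), or 42.5% of control, with every Kbr array below every control array. At 24 h it had 9.00, 8.83 and 8.21 in Kbr cultures, against 9.26, 9.13 and 8.59 in control cultures. Those groups overlapped, but each same-numbered pair was lower with Kbr, and the -0.31 was called only with the replicate block (adjusted p = 0.0164, against 0.339 without it). ACOX3, an acyl-CoA oxidase for branched chains, lay near the filter, with 4.52, 3.93 and 4.38 in Kbr 24 h cultures, against 5.94, 5.07 and 4.94 in control 24 h cultures. Its values at 48 h were 4.27, 3.92 and 3.94 in Kbr cultures, against 4.66, 5.32 and 4.60 in control cultures. The fold changes of -1.04 at 24 h (SE 0.28, adjusted p = 0.0161) and -0.81 at 48 h (SE 0.28, adjusted p = 0.0264) therefore rest on dim signals. With an offset of 32 added before the log, which damps dim signals, they were -0.50 (adjusted p = 0.0265) and -0.34 (adjusted p = 0.0729). The call at 24 h was lost without Kbr 24 h replicate 2 (adjusted p = 0.0635), without control 24 h replicate 1 (0.0576) and without the filter (0.0509). The call at 48 h was lost without the filter (adjusted p = 0.0753) and on leaving out replicate 2 of the Kbr cultures (adjusted p = 0.0756), replicate 3 of the Kbr cultures (0.0677) or replicate 2 of the controls (0.105).

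The remaining peroxisomal enzymes differed less. HSD17B4, the multifunctional enzyme for branched chains, fell by 0.47 at 48 h (SE 0.11, adjusted p = 0.00271), and at 24 h its -0.24 was called only with the replicate block (adjusted p = 0.0184). EHHADH, the bifunctional enzyme for straight chains, fell by 0.44 at 48 h (SE 0.15, adjusted p = 0.0301) with overlapping arrays, 8.12, 8.38 and 7.96 in Kbr 48 h cultures against 8.27, 8.76 and 8.75 in control 48 h cultures. That call was lost on leaving out replicate 1 or 3 of the Kbr 48 h cultures (adjusted p = 0.0722 and 0.101) or replicate 2 or 3 of the control 48 h cultures (adjusted p = 0.105 and 0.102). ACAA1, the peroxisomal thiolase, was not called (-0.10 at 24 h and -0.16 at 48 h). The ABC transporters were not called either: ABCD3, which takes acyl-CoA into peroxisomes, at -0.01 and -0.06, and ABCD4, known from lysosomal cobalamin export, at 0.10 and 0.31. Without Kbr 48 h replicate 3, ABCD4 was called higher at 48 h (0.53, adjusted p = 0.00505).

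Peroxins that place proteins in the peroxisomal membrane were split. PEX3, the membrane anchor for the import of membrane proteins, had 8.75, 9.12 and 8.86 in Kbr 24 h cultures, against 9.33, 9.66 and 9.60 in control 24 h cultures (fold change -0.62, SE 0.16, adjusted p = 0.0131). At 48 h it had 8.89, 8.93 and 8.46 in Kbr cultures, against 9.37, 9.69 and 9.67 in control cultures (fold change -0.82, SE 0.16, adjusted p = 0.00111). Both times separated the groups, and a second PEX3 probe set fell too (-0.75 and -1.21). PEX19, the soluble receptor that binds PEX3, was not called on its chosen probe set (-0.09 and 0.07), but its probe set 201707_at was called higher at 24 h (0.42, adjusted p = 0.0335 in the fit of every probe set). PEX16, which acts with PEX3, lay between 7.19 and 7.21 in 11 arrays and at 6.95 in the other one, so this probe set carried nearly no spread. A second PEX16 probe set was called lower at 48 h (-0.36, adjusted p = 0.0421 in the fit of every probe set).

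Peroxins of matrix protein import differed in direction. PEX14, the docking protein at the import pore, was higher with Kbr, at 9.11, 9.05 and 8.87 in Kbr 24 h cultures, against 8.49, 8.53 and 8.52 in control 24 h cultures. At 48 h it had 9.13, 9.09 and 9.23 in Kbr cultures, against 8.04, 8.53 and 8.45 in control cultures. It was the single riser among the tested genes, by 0.50 at 24 h (SE 0.13, adjusted p = 0.0130) and by 0.81 at 48 h (SE 0.13, adjusted p = 0.00027), or 175% of control, with no overlap. The second PEX14 probe set gave 0.36 at both times and was called at 48 h alone (adjusted p = 0.0315 in the fit of every probe set). PEX5, the import receptor for the common targeting signal, was called higher at 24 h only with the replicate block (0.33, adjusted p = 0.0396) and read 0.21 at 48 h. PEX7, the receptor for the second targeting signal, carried by ACAA1 and PHYH, had 6.48, 6.79 and 6.57 in Kbr 48 h cultures, against 7.33, 7.74 and 7.33 in control 48 h cultures. It fell by 0.85 at 48 h (SE 0.15, adjusted p = 0.000505), and at 24 h its -0.25 was not called on this probe set, while 211033_s_at was (-0.71, adjusted p = 0.00665 in the fit of every probe set).

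The ubiquitin ligase subunits PEX2 and PEX10 and the ATPase PEX6 with its anchor PEX26, which recycle the receptor PEX5, read lower. PEX2 had 9.55, 9.88 and 9.74 in Kbr 24 h cultures, against 10.15, 10.28 and 10.18 in control 24 h cultures (fold change -0.48, SE 0.13, adjusted p = 0.0165). The PEX2 values at 48 h were 9.39, 9.66 and 9.40 in Kbr cultures, against 10.04, 10.41 and 10.36 in control cultures (fold change -0.79, SE 0.13, adjusted p = 0.000362). PEX2 groups were apart at both times. PEX10 missed the threshold at 48 h (-0.88, adjusted p = 0.0558) but not with the replicate block (adjusted p = 0.00125), and likewise at 24 h (-0.53, adjusted p = 0.294, and 0.0288 with the block). Its second probe set was called at both times (-1.05 and -1.23). PEX10 was also called lower at 48 h on leaving out Kbr 48 h replicate 3 (adjusted p = 0.0363) or replicate 2 of either control group (0.0433 for control 48 h and 0.0215 for control 24 h). PEX26 fell by 0.70 at 48 h (SE 0.18, adjusted p = 0.00561). PEX6 had 3.13, 3.16 and 3.10 in Kbr 48 h cultures, against 4.81, 4.01 and 3.92 in control 48 h cultures, and exceeded the filter value in 3 arrays, all of them controls. Since only controls carried it over the filter, its fold change of -1.12 at 48 h (SE 0.41) is given as a description, and with an offset of 32 it was -0.34. It counts among the genes called lower at 48 h, a call that was not made without the filter (adjusted p = 0.0988), with that offset (adjusted p = 0.110), without any 1 of the Kbr 48 h arrays (adjusted p between 0.0694 and 0.0719) or without control 48 h replicate 1 (adjusted p = 0.132). At 24 h its -0.90 was called only with the replicate block. PEX11A, which promotes peroxisome division, was not called (-0.14 and 0.05).

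The Kbr effect differed between the times in 4 genes, all lower at 48 h: CROT (-1.41, SE 0.17, adjusted p = 0.00608), ECI1 (-1.01, SE 0.17, adjusted p = 0.0144), CPT1A (-0.97, SE 0.24, adjusted p = 0.0473) and ACADVL (-0.94, SE 0.25, adjusted p = 0.0498). Over all tested genes 3.49% were called lower in this test. With the replicate block 10 genes were called, against 11.4% of all tested genes, with DECR1, ETFB, HADH, HADHA, PHYH and PPARA added. The calls of CPT1A and ACADVL lay at the threshold and were each lost on leaving out any of 10 of the 12 arrays. Without Kbr 48 h replicate 3, ETFB was called as well (-0.82, adjusted p = 0.0150). The Kbr mean was lower at 48 h than at 24 h in 30 of 38 genes (median -0.19, against 5644 of 10574 genes and -0.02 overall), while the control mean was higher at 48 h in 25 of 38 (median 0.07, against 4876 of 10574 genes and -0.03 overall).

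In control cultures alone CROT was higher at 48 h, at 7.54, 7.61 and 7.42, against 6.83, 7.16 and 7.08 at 24 h. It was the only gene of the set called for time in controls (0.50, SE 0.12, adjusted p = 0.0452), where 1.73% of all tested genes were called higher. The control 48 h and control 24 h arrays of CROT did not overlap on this probe set, but the call was lost on leaving out any of 10 of the 12 arrays. In the fit of every probe set 204573_at was not called (adjusted p = 0.0619), and 231102_at read 0.01 (adjusted p = 0.983). With the replicate block PPARA, PHYH, HADHB and CROT were called higher at 48 h and ECHS1 lower, against 8.62% higher and 12.2% lower of all tested genes.

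**Figure D4:**
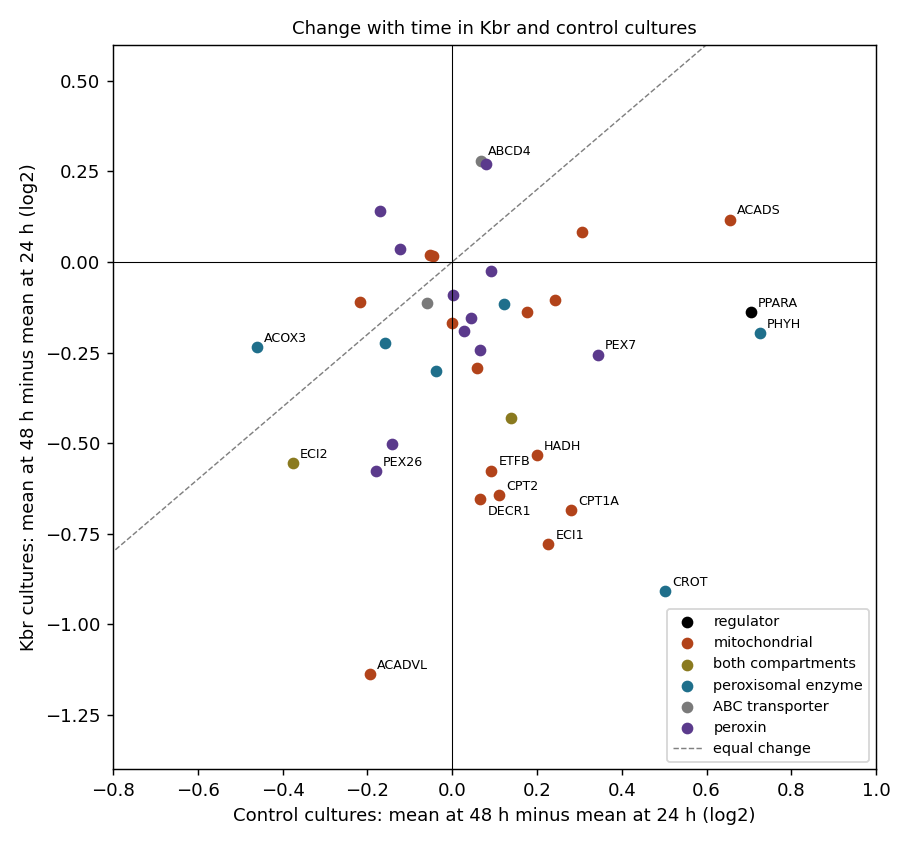
Change of the group mean between 24 h and 48 h (log2) in Kbr cultures (vertical) and control cultures (horizontal) for the 38 tested genes, coloured by class, with a dashed line of equal change. CROT, CPT1A and ECI1 lie at the lower right, lower with time under Kbr and higher in controls, and ACADVL lies lowest.

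Other genes of the same pathways, from lists that were likewise drawn up with results of these data known, moved in both directions. Of 52 tested genes 13 fell (25%) and 6 rose (11.5%) at 24 h, near the 20.0% and 12.4% of all tested genes. At 48 h 29 fell (55.8%, against 32.8% of all tested genes) and 12 rose (23.1%, against 26.9%). Among 14 other mitochondrial genes 3 fell (21.4%) and 0 rose at 24 h, and 9 fell (64.3%) and 1 rose (7.14%) at 48 h. ACACB, the acetyl-CoA carboxylase that makes the inhibitor of CPT1A, read -1.60 at 24 h (SE 0.35, adjusted p = 0.00595) and -2.63 at 48 h (SE 0.35, adjusted p = 8.27e-05). ACSM3, a medium-chain acyl-CoA synthetase, read -1.07 and -2.31, the thioesterase ACOT9 read -0.77 and -0.60, and MLYCD, which breaks down malonyl-CoA, read -0.87 at 48 h, all called. ACACB and MLYCD, with opposite roles in malonyl-CoA, were thus both lower at 48 h.

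Among 18 other peroxisomal enzymes and membrane proteins 6 fell (33.3%, against 20.0% of all tested genes) and 3 rose (16.7%, against 12.4%) at 24 h. At 48 h 10 fell (55.6%, against 32.8%) and 4 rose (22.2%, against 26.9%). SLC27A2, a very long-chain acyl-CoA synthetase and fatty acid transporter that PPAR-alpha is known to induce, averaged 5.12 ± 0.01 in Kbr 24 h and 7.67 ± 0.59 in control 24 h cultures (SD, n = 3 each). Its averages at 48 h were 4.55 ± 0.04 in Kbr and 8.77 ± 0.16 in control cultures, a fold change of -4.23 (SE 0.23, adjusted p = 5.37e-07). The thioesterase ACOT8 fell by 1.03 at 24 h. The membrane protein PXMP2 fell by 2.04 at 48 h. MPV17, a related protein now placed in mitochondria but counted in this list, fell at 24 h (-0.89) and at 48 h (-1.36). Of 5 other peroxins, division factors and related genes, VCP, an ATPase related to PEX6, rose at both times (0.50 and 0.71). FIS1, a division adaptor, fell at 48 h (-0.79), as did the deubiquitinase USP9X (-0.38). In this list 2 of the 5 fell at 48 h (40%, against 32.8% of all tested genes). The other 3 rose (60%, against 26.9%).

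Of 11 tested PPAR receptors and partners 3 fell (27.3%) and 1 rose (9.09%) at 24 h, against 20.0% and 12.4% of all tested genes. At 48 h 6 fell (54.5%, against 32.8%) and 3 rose (27.3%, close to the 26.9% of all tested genes). PPARGC1A, the coactivator PGC-1-alpha, averaged 6.91 ± 0.79 in Kbr 48 h and 8.60 ± 0.26 in control 48 h cultures (SD, n = 3 each), with fold changes of -1.49 at 24 h (adjusted p = 0.00516) and -1.69 at 48 h (adjusted p = 0.000839). RXRA, the partner receptor, read -0.79 and -1.41, and LPIN1, a coactivator, read -0.50 at 24 h, each called. PPARG, the related receptor of fat cells, rose by 1.13 at 48 h (SE 0.20, adjusted p = 0.000513). Of 6 tested PPAR targets outside the set 2 fell (33.3%) and 1 rose (16.7%) at 24 h, and 4 fell (66.7%) and 1 rose (16.7%) at 48 h. TXNIP, whose protein binds thioredoxin, averaged 6.52 ± 0.88 in Kbr 24 h and 9.44 ± 0.37 in control 24 h cultures, and 3.38 ± 0.37 in Kbr 48 h and 5.91 ± 1.32 in control 48 h cultures (SD, n = 3 each). Its fold changes of -2.92 at 24 h and -2.53 at 48 h were called (adjusted p = 0.00403 and 0.00351). The target PLIN2, a lipid droplet coat protein, rose by 0.35 at 24 h and by 0.76 at 48 h (adjusted p = 0.0448 and 0.000249), opposite to SLC27A2 and TXNIP.

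Genes listed as markers of cell types moved with Kbr, in cultures that all came from the HK-2 line. Whether any other cell type was present was not tested. Of 7 fibroblast markers 3 exceeded the filter, COL1A1, DCN and LUM, and all 3 fell at both times, while COL1A2, COL3A1, PDGFRA and PDGFRB did not exceed it. Over all tested genes 20.0% were called lower at 24 h and 32.8% at 48 h, against which the counts in this paragraph are to be read. The log2 of the summed level of the fibroblast list lay between 11.4 and 11.8 in Kbr 24 h arrays. In control 24 h arrays it lay between 12.4 and 12.9. The sum at 48 h lay between 10.2 and 10.6 in Kbr and between 12.28 and 12.34 in control arrays. Proximal tubule markers summed to between 12.7 and 13.0 in Kbr 48 h and between 13.9 and 14.4 in control 48 h arrays, with 5 of the 6 tested lower at 48 h and PAX8 higher. At 24 h that sum lay between 13.1 and 13.4 in Kbr and between 13.6 and 14.0 in control arrays. Of 14 markers of other nephron segments 4 exceeded the filter, while SLC12A3, AQP2, NPHS1 and others did not, and 2 of the 4 were lower at 24 h and 3 at 48 h (median -1.11). The water channel AQP3 read -2.78 and -3.59, and the sodium channel subunit SCNN1A read -0.62 and -1.79. Their sum lay between 8.65 and 8.75 in Kbr 24 h and between 9.18 and 9.55 in control 24 h arrays, and between 8.06 and 8.45 in Kbr 48 h and between 9.67 and 9.97 in control 48 h arrays. Of 10 markers of endothelium or leukocytes 1 exceeded the filter, TEK, which was not called. The part of these marker shifts in the results was not tested.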

How the data were processed

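Biotinylated cRNA from 12 HK-2 cultures was run on Affymetrix arrays, per the labels' protocols. The authors deposited log2 values from GCRMA, a name taken from the submitters' processing notes. Its version, genome build and detection calls are not given in the sources used here. GCRMA pulls dim signals together, which can shrink differences of low genes. The platform's annotation paired 41091 of 54675 probe sets with 1 symbol, and no value was missing. The number of arrays limits the precision.

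All 12 arrays entered 1 linear model in limma 3.58.1 (R 4.3.3, lmFit, contrasts.fit and eBayes), with 8 residual and 2.87 prior degrees of freedom. Tests were two-sided, with Benjamini-Hochberg adjustment over 10574 genes. SE is the moderated standard error. Kbr was compared with control at each time, the effects at the times with each other, and 48 h with 24 h within controls. Same-numbered arrays of different groups correlated between 0.232 and 0.633 after group means were removed, in 18 pairs. Different numbers correlated between -0.378 and -0.004, in 36 pairs. Deviations cancel within a group, so that negative range is no separate evidence. The positive range shows that the labels' replicate numbers pair the arrays. The main fit leaves this pairing out, and it called fewer genes of the set than a fit with the replicate number as a block. A fit with that block is given where it changes a call. The fit of every probe set adjusts over all probe sets past the filter. Motifs were counted in promoters from RefSeq. The main fit was also run on simulated data, with changes planted in few genes at 24 h. The simulated noise was independent between arrays, without the shared deviations of replicate numbers seen here. That run therefore cannot show how the fit behaves under such sharing.

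The genes, the pathway and marker lists and the alternatives were chosen with earlier results of these data known. Values in every array are given for PPARA and for the called genes of each class with the largest change, up to 4 mitochondrial genes, 3 peroxisomal enzymes, 3 peroxins and 2 others per time, for genes called for the time difference, and for further genes chosen after their values were seen. From the wider lists up to 3 called genes with the largest change per list and time are named. Python 3.11.15 with pandas 2.3.3 and matplotlib 3.10.9 served for summaries and plots. Alternatives are listed with their effects in the closing section.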

Additional observations from a re-analysis of the deposited data

Results flagged for a closer look

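In 4 genes the Kbr effect at 48 h differed from that at 24 h by a test of the difference itself in limma. It was -1.41 for CROT, -1.01 for ECI1, -0.97 for CPT1A and -0.94 for ACADVL on the log2 scale (adjusted p = 0.00608, 0.0144, 0.0473 and 0.0498). For CROT the value belongs to probe set 204573_at alone, since its second probe set moved the other way at 48 h.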

How the results depend on the processing

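Beside the choices above, the alternatives were an adjusted p under 0.01, no filter or a filter at 6 log2 units, a gene's probe sets averaged, unsuffixed probe sets preferred, arrays centred on the median, quantile normalization, an offset of 32, a trended and robust prior, a fit of only the groups compared, the replicate number as a block, single arrays left out, and, chosen after seeing the data, each probe set on its own. The 26 calls at 48 h stayed between 22 and 27 throughout, and 20 of the 26 genes were called in all 23 settings. Those lost in some setting were ACAA2, ACOX3, CROT, EHHADH, PEX6 and SLC25A20. Of the 13 calls at 24 h 1 gene held in all 23 settings. That count was 2 at an adjusted p under 0.01, 21 with the replicate block, and between 4 and 16 with an array left out. The count of 4 for the difference was 1 at an adjusted p under 0.01, 2 with the mean of all probe sets, with arrays centred on the median or with each probe set on its own, and 10 with the replicate block, and between 2 and 5 with an array left out. The single call for time in controls, CROT, became 0 in limma at an adjusted p under 0.01, without a filter, with the mean of all probe sets, with quantile normalization, with a trended and robust prior, with only the groups compared and with each probe set on its own, 5 with the replicate block, and between 0 and 2 with an array left out. PEX19 at 24 h turned to 0.42 (adjusted p = 0.0279) with unsuffixed probe sets preferred. The block changed no call of the 41 genes other than those named. Calls over all tested genes are given here for the main fit and the replicate block alone. The causes of these shifts were not tested.

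Dim probe sets such as those read for ACOX3, PEX6 and AMACR carry little signal over background. Of 18 genes with more than 1 probe set over the filter, 15 at 24 h and 14 at 48 h had the same sign in all of them, and 1, CROT, was called in opposite directions at 48 h.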
